A study of Mus musculus with 18 samples.

Results

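Mitochondrially encoded transcripts and the transcripts of the mitochondrial ribosome were measured in every cell cluster of the adult mouse stomach. The members were all gene symbols of the count tables that start with mt-, Mrpl or Mrps, without names that end in -ps and a number. This gave 106 members of 31201 gene names: 26 mt- genes (11 protein-coding, 2 ribosomal RNA and 13 transfer RNA genes), 51 Mrpl genes and 29 Mrps genes. The rule kept Mrpl27-ps and Mrpl48-ps, which the annotation lists as processed pseudogenes, and left out 4 names. Cells came from wild-type male C57BL/6J mice aged 10 weeks, with no treatment. Dataset 1 held corpus and antrum gastric units as pools tube1 and tube2, sorted on 3 plates each after removal of dead cells, for which the labels name the dye ToPro3 and the study's methods propidium iodide. Dataset 2 held corpus gastric units as pools K and T, sorted as Hoechst33342-positive and ToPro3-negative cells on 6 plates each. Every pool mixed 3 mice, so the spread between the 2 pools of a dataset does not give the spread between single animals. Per the paper, different operators prepared the replicates of a dataset, so pool and operator cannot be told apart.

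Mitochondria are built from 2 genomes. The mitochondrial genome carries its own ribosomal RNAs, transfer RNAs and mRNAs for a few subunits of respiratory complexes I, III, IV and V. The nucleus encodes the other subunits, and it encodes every protein of the mitochondrial ribosome. The Mrpl genes are named for its large subunit and the Mrps genes for its small subunit, though a name does not settle the subunit of each protein. Parietal cells, the acid-secreting cells of the stomach, are known for their dense packing with mitochondria, which feed the proton pump Atp4a/Atp4b. Mrps36 carries a ribosomal name but is known as a component of the mitochondrial 2-oxoglutarate dehydrogenase complex.

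Quartz-Seq2 counts molecules by unique molecular identifiers (UMIs) at the 3′ ends of polyadenylated RNA. Plates held 3054370 to 5346035 UMIs in dataset 1 and 10540256 to 12850942 in dataset 2, and the kept cells had a median of 38757 and 31020 UMIs. The cluster labels were those of the authors: 491 cells in 15 clusters in dataset 1 and 3993 cells in 20 clusters in dataset 2. The same 384 cell barcodes served every plate, so cells were told apart by plate and barcode together. The parietal clusters of dataset 2 were 1 (458 cells) and 8 (244 cells). They carried summed UMIs of the parietal markers Atp4a, Atp4b, Kcnq1, Kcne2 and Slc26a7 of 417 to 450 and 332 to 349 per 10000 UMIs of all genes. This denominator includes mt- genes, and all 5 markers were present in both pools. Dataset 1 cluster 0 (57 cells) carried 361 to 367.

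Not all mitochondrial genes could be read equally. A stretch of the nuclear genome on the minus strand (GRCm39 chr1:24650616-24655269) repeated bases 6390 to 11042 of the mitochondrial genome over 4654 aligned bases with 99.9% identity. It differed by A6393T, by T9461C (the mitochondrial base, its position in the mitochondrial genome and the base of the copy on the same strand) and by 1 extra A after position 9824. The stretches below, all from the plus strand of GRCm39, show where the mitochondrial genes fall against that copy, with bases identical in the copy in capitals. They are the last 60 bases of mt-Co3 (chrM:9331-9390), the first 60 of mt-Nd3 (chrM:9459-9518), 60 bases inside mt-Nd4 where the copy ends (chrM:11013-11072) and the last 60 of mt-Cytb (chrM:15229-15288).
mt-Co3: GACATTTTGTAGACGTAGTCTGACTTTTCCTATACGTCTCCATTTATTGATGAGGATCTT
mt-Nd3: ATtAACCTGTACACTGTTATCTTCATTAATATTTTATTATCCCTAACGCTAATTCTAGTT
mt-Nd4: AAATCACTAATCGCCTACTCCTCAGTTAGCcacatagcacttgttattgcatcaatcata
mt-Cytb: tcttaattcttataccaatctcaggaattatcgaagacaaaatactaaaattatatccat
The mt-Co3 end was matched whole, mt-Nd3 lost 1 base, mt-Nd4 was matched for 30 of 60 bases and mt-Cytb for none.

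Of the 37 annotated mitochondrial genes, 14 had an exact nuclear copy for every 63-base window, about the length of a read. Of these, 11 were not in the tables used here: mt-Atp8, mt-Nd4l and 9 transfer RNAs. The other 3 were listed with almost no UMIs: mt-Co2 with 4 and 4 UMIs in datasets 1 and 2, mt-Atp6 with 2 and 3, and mt-Co3 with 4 and 6. Mt-Nd3, with a copy for 99.0% of its windows, held 6770 and 102386 UMIs. Mt-Nd4, with 61.9% of its windows copied but none in its last 200 bases, held 288017 and 2128817. Mt-Co1 held 117913 and 1211111 although every window in its last 200 bases was copied. Mt-Cytb (318451 and 2419136) and mt-Nd1 (280641 and 1874811) had no copied window. How reads with several matches were handled was not tested, so values of complexes IV and V rest on mt-Co1 and on no subunit of complex V, and no level of mt-Co2, mt-Co3 or mt-Atp6 is given.

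**Figure D1:**
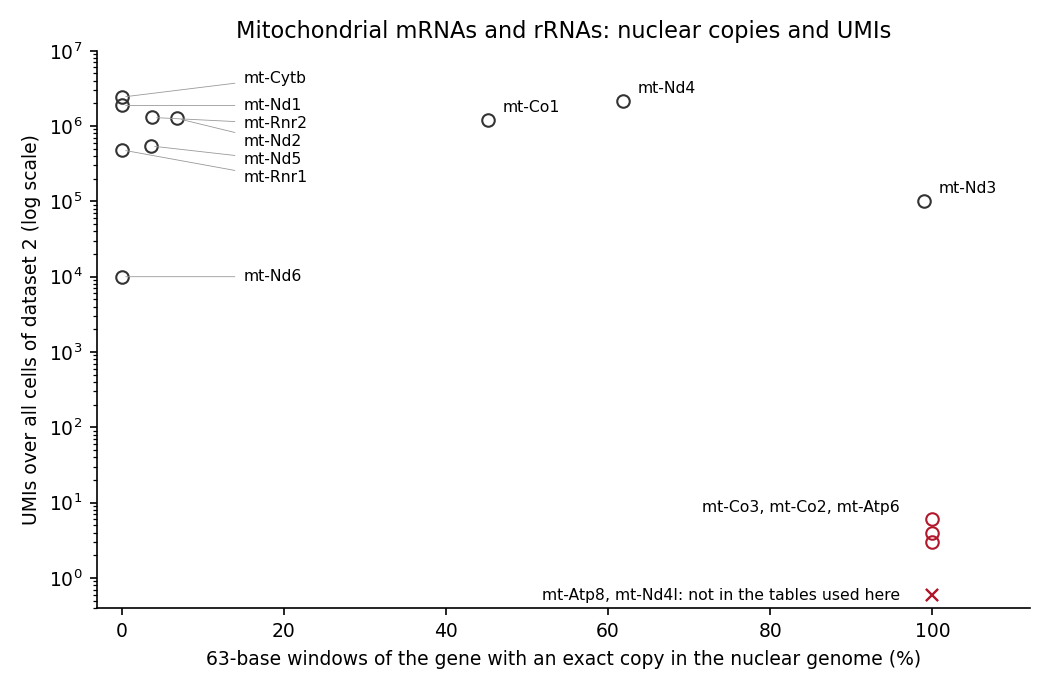
UMIs over the kept cells of dataset 2 (log scale) against the share of 63-base windows of the gene with an exact copy in the nuclear genome, for the 15 mitochondrial mRNAs and rRNAs. The 3 listed genes copied over 100% of their windows (red circles) held 3 to 6 UMIs, and mt-Atp8 and mt-Nd4l (cross at the bottom) were not in the tables used here.

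Within each dataset the parietal clusters had the highest mean share of all UMIs on mt- genes. It was 22.9% in pool K and 21.7% in pool T of parietal cluster 1 (22.3% ± 0.856, SD, n = 2 pools) and 12.5% and 13.5% in parietal cluster 8 (13% ± 0.738). In dataset 1, parietal cluster 0 held 17.6% in tube1 and 18.2% in tube2 (17.9% ± 0.418), between both clusters of dataset 2. No other epithelial cluster of dataset 2 had a mean above 5.75% (neck cluster 2), and the chief cluster 10 was the lowest at 3.6% ± 0.181. The isthmus clusters lay at 4.00% to 4.76% and the pit clusters at 4.51% (mature, 13) and 4.93% (pre-pit, 4). Neighbours in this order overlapped: neck clusters 2 and 7 (5.75% ± 0.071 and 5.72% ± 0.142) did not differ beyond their spread. Clusters 14 to 19, which are not among the epithelial clusters compared here, ran from 2.50% to 4.56%. In dataset 1 cluster 5-7 also stood high, at 11.3% and 12.7%. It held enterocyte markers (Apoa1, Fabp1, Alpi, Reg3g) at 270 to 282 per 10000 UMIs of all genes and parietal markers at 0.397 to 1.13. Its tube2 value lay above that of pool K of parietal cluster 8, and 20 of its 70 cells held over 20% mt- UMIs, against 20 of the 57 parietal cells of dataset 1.

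The mitoribosome followed another order. Levels are summed Mrpl and Mrps UMIs per 10000 UMIs of nuclear genes, so that the mt- share does not enter the denominator. Cluster 8 was highest, with 115.6 in K and 115.4 in T (115.5 ± 0.135, SD, n = 2 pools), and dataset 1 cluster 0 was close to it at 114.2 ± 1.21. Parietal cluster 1, the highest in mt- UMIs, held 87.1 and 91.8 (89.4 ± 3.33). Next came 4 of the 5 isthmus progenitor clusters, with 75.6 ± 0.302 in cluster 6, 74.7 ± 1.26 in the G2/M cluster 5, 72.6 ± 0.408 in cluster 9 and 70.0 ± 1.77 in the S-phase cluster 3. Clusters 5 and 6 did not differ beyond their spread. The other isthmus cluster, 11, held 60.8 ± 4.00, below the pre-pit cluster 4. Pit clusters lay at 56.1 to 63.4 and neck clusters at 42.8 to 60.9. Chief cells (cluster 10) were lowest among epithelial clusters of dataset 2 on this scale at 32.4 ± 0.616. In dataset 1, the dividing isthmus-like cluster 4-15 (83.0 ± 3.47) stood above the neck cluster 3 (60.2 ± 4.48), and cluster 5-7 held 40.2 ± 0.226.

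**Figure D2:**
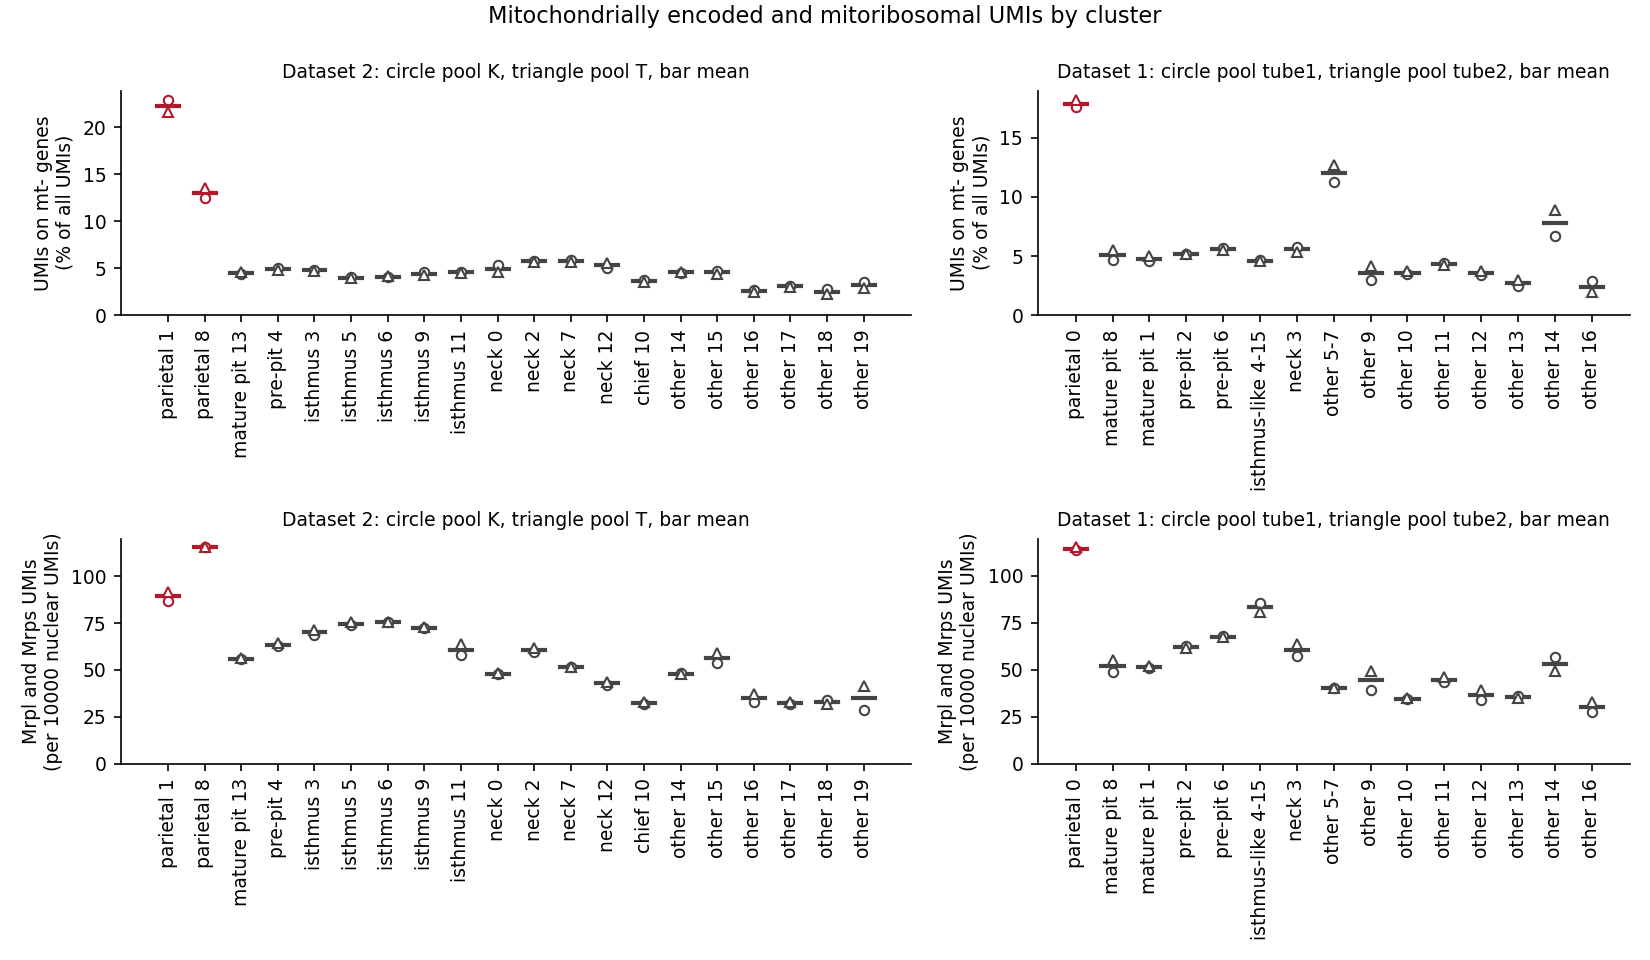
Percent of UMIs on mt- genes (top) and Mrpl and Mrps UMIs per 10000 nuclear UMIs (bottom) by cluster in dataset 2 (left) and dataset 1 (right), with 1 point per pool and a bar at the mean. Parietal clusters (red) are highest in mt- UMIs in both datasets, while for the mitoribosome cluster 8 at 115.5 exceeds cluster 1 at 89.4.

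The ratio of both genomes therefore varied widely. Mt- UMIs per Mrp UMI numbered 32.2 in parietal cluster 1, 12.9 in cluster 8 and 19.1 in dataset 1 parietal cells. They fell to 5.58 in the G2/M isthmus cluster 5 and 5.65 in isthmus cluster 6, against 10.03 to 13.1 in the neck clusters and 11.5 in chief cells. Cluster 5-7 of dataset 1 reached 33.9. Across all 20 clusters of dataset 2, Spearman's rho between the mt- share and the Mrp level was 0.55, and 0.38 over the 18 clusters that are not parietal. These are descriptions, since clusters share plates and pools.

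Complex I joins subunits from both genomes. Of its mt- mRNAs the tables held mt-Nd1, mt-Nd2, mt-Nd3, mt-Nd4, mt-Nd5 and mt-Nd6 in quantity. Their UMIs per UMI of 37 nuclear complex I genes were 6.61 in K and 6.22 in T in parietal cluster 1, against 2.84 and 2.98 in cluster 8. The nuclear complex I genes themselves summed to 246 ± 4.40 per 10000 nuclear UMIs in cluster 1 and 276 ± 8.74 in cluster 8. Dataset 1 parietal cells had a ratio of 3.56 and 334 per 10000. Other epithelial clusters of dataset 2 had ratios of 2.66 (cluster 5) to 4.83 (neck cluster 12), and none exceeded 81.4 nuclear complex I UMIs per 10000. Cluster 8 thus had nuclear complex I levels above those of cluster 1 and a ratio inside the range of clusters that are not parietal.

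Parietal clusters 1 and 8 were compared directly, using counts summed by cluster and pool. The test was edgeR's quasi-likelihood test over 15295 genes with Benjamini-Hochberg adjustment. Since the authors built the clusters on these very counts, an adjusted p here and below tells how far apart clusters lie. Of the 26 mt- genes 19 passed the filter on low counts, and 18 were higher in cluster 1 and none lower. Among all genes 10.8% were called higher and 8.98% lower. Of the 80 Mrpl and Mrps genes 78 passed, and 46 were lower in cluster 1 (29 Mrpl, 17 Mrps) and none higher. At an unadjusted p under 0.05 these were 18 higher mt- genes and none lower, and 55 lower Mrp genes and none higher. DESeq2 called 17 mt- genes higher and none lower, and 53 Mrp genes lower and none higher. The median log2 fold change was 1.09 over the mt- genes and -0.34 over the Mrp genes, against 0.00 over all genes. The counts depended on having both pools: with pool K of these clusters left out 10 mt- genes were called higher and 7 Mrp genes lower, and with pool T left out 15 and 15.

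**Figure D3:**
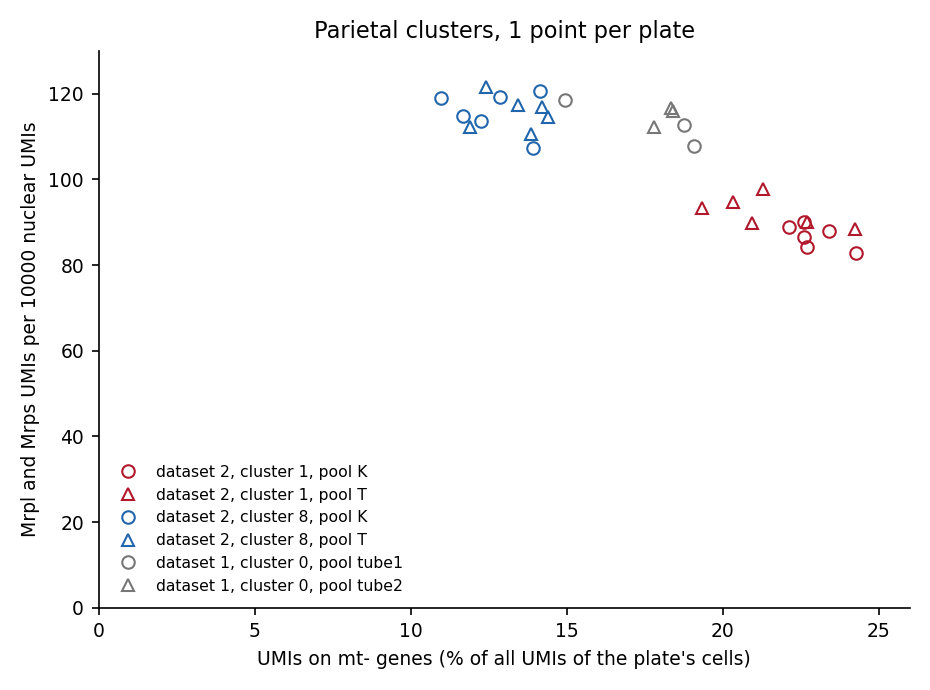
Mrpl and Mrps UMIs per 10000 nuclear UMIs against the percent of UMIs on mt- genes for the parietal clusters, with 1 point per plate. The 12 plates give 19.3% to 24.3% for cluster 1 and 10.98% to 14.4% for cluster 8, without overlap on either axis.

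The separation held on every plate. Cluster 1 ranged from 22.1% to 24.3% mt- UMIs over the 6 plates of pool K (median 22.7%) and from 19.3% to 24.3% over those of pool T (median 21.1%). Cluster 8 ranged from 10.98% to 14.1% (median 12.6%) and from 11.9% to 14.4% (median 13.7%). Mrp levels ranged from 82.9 to 97.7 per 10000 nuclear UMIs over all 12 plates in cluster 1 and from 107.2 to 121.5 in cluster 8. No plate of one cluster overlapped a plate of the other in either measure. Plates of a pool hold cells of the same mice. An exact permutation test over the pools could not go below p = 0.333.

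Single cells overlapped in part. Of 458 cluster 1 cells 98.3% lay above the median mt- share of cluster 8, while 5.74% of 244 cluster 8 cells lay above that of cluster 1. For the Mrp level 95.9% of cluster 8 cells lay above the cluster 1 median and 2.84% of cluster 1 cells above the cluster 8 median. Within cluster 1 the mt- share fell with the UMIs of the cell (Spearman's rho -0.71 over 458 cells), and the Mrp level rose with them (rho 0.32). In cluster 8 these values were -0.10 and 0.10 over 244 cells. Mt- share and Mrp level had rho -0.40 in cluster 1, -0.30 in cluster 8 and -0.63 over the 57 parietal cells of dataset 1. Each pair shares its library and depth, so these are descriptions. Depth was then matched, a choice made after the data were seen: in cells with 40000 to 60000 UMIs the mt- share was 22.9% (K, 127 cells) and 21.7% (T, 74 cells) in cluster 1 and 12.2% (K, 55 cells) and 14.7% (T, 55 cells) in cluster 8, and the Mrp level was 86.0 and 92.7 against 118.4 and 115.5.

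All mt- genes in quantity rose in cluster 1. Mt-Nd3, a small membrane subunit of complex I, showed the largest rise among the mRNAs, with 3942 and 3674 CPM (counts per 1000000 counts after TMM scaling) in pools K and T of cluster 1 against 1247 and 1426 in cluster 8 (log2 fold change 1.51 ± 0.15 SE, adjusted p = 2.77e-09, edgeR). It is also a gene with a near-complete nuclear copy. Mt-Nd2, mt-Nd4 and mt-Nd5, further complex I subunits, rose by 1.11, 1.06 and 1.09. Mt-Cytb, the complex III subunit, which has no nuclear copy, had 65144 and 61822 CPM in cluster 1 against 30105 and 34924 in cluster 8 (0.97 ± 0.17, adjusted p = 3.73e-05). Mt-Co1, the catalytic subunit of complex IV, rose by 0.92 ± 0.14 (adjusted p = 3.45e-06), and mt-Nd1, with 0.86 ± 0.16, rose least among the mRNAs.

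The remaining mt- genes went the same way. Mt-Nd6, the complex I subunit encoded on the opposite strand from the other mRNAs, had 226 and 170 CPM against 99.2 and 103 (0.97 ± 0.14). UMIs of the rRNAs rose by 1.03 ± 0.17 (mt-Rnr1, small subunit) and 0.94 ± 0.19 (mt-Rnr2, large subunit). They thus moved against the UMIs of the mitoribosomal protein mRNAs. The method counts polyadenylated RNA. How far the UMIs of rRNAs, transfer RNAs and mt-Nd6, here and below, stand for all RNA of these genes was not tested. Transfer RNAs were counted at 9 to 376 UMIs per pool, and 8 of 9 tested rose, led by mt-Tv at 2.18 ± 0.47 and mt-Tm at 2.12 ± 0.47. Mt-Tt (threonine) was the exception, with a log2 fold change of 0.41 ± 0.38 (adjusted p = 0.534). Of the mt- UMIs of clusters 1 and 8, mt-Cytb took 19.8% ± 0.45 and 20.2% ± 0.27 and mt-Rnr2 10.4% ± 0.99 and 10.8% ± 0.47, within their spread. The share of mt-Nd3 was 1.19% ± 0.012 in cluster 1 against 0.829% ± 0.0026 in cluster 8, that of mt-Nd2 12.8% and 13.2% in K and T against 11.9% and 12.04%, that of mt-Nd4 18.6% ± 0.36 against 17.6% ± 0.0087 and that of mt-Nd1 16.7% ± 0.60 against 18.2% ± 0.31, each without overlap of the pools.

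Among the Mrp genes the largest falls in cluster 1 were those of Mrps27, a small-subunit protein (48.0 and 42.6 CPM in K and T against 80.6 and 76.8, log2 fold change -0.79 ± 0.11 SE, adjusted p = 8.51e-07), and Mrps36 (22.0 and 24.7 against 35.9 and 41.3, -0.73 ± 0.16, adjusted p = 0.00104). The large-subunit genes Mrpl19 (57.4 and 56.7 against 99.0 and 85.4) and Mrpl45 (74.1 and 71.9 against 117 and 116) followed. In all 4 both pools of cluster 1 lay below both pools of cluster 8. Of the most abundant Mrp genes, Mrpl12 (-0.53), Mrpl30 (-0.35) and Mrps24 (-0.38) were lower, while Mrpl42 missed the threshold (-0.26 ± 0.12, adjusted p = 0.130). Mrpl14 had the highest value, 0.18 ± 0.11 (adjusted p = 0.285), so in this fit no Mrp gene was called against the direction of the others. With plates as units 59 Mrp genes were lower and 1 higher. With library size and scaling taken from nuclear genes alone, 42 Mrp genes were lower and none higher, the median over all genes moved from 0.00 to 0.03, and Mrps27 stood at -0.76.

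Other nuclear lists of mitochondrial function are given by their counts and medians, and their difference from the Mrp genes was not tested. Of 37 nuclear complex I genes 1 was higher (Ndufa1, 0.49 ± 0.11) and 8 were lower in cluster 1, led by Ndufv2 (-0.37) and Ndufb6 (-0.37), with a list median of -0.16, where 8.98% of all genes were called lower. Lower calls numbered 2 of 4 in complex II (Sdhd -0.44, Sdhb -0.38) and 5 of 16 tested in complex V (Atp5g3, -0.43), with medians of -0.30 and -0.24 and none higher. In complex III 1 of 9 (Cyc1, -0.50) and in complex IV 1 of 11 (Cox5a, -0.35) were lower, which is near the share over all genes, with medians of -0.12 and -0.11. Mitoribosomal proteins under other names gave 2 lower of 5 (Chchd1 -0.43, Gadd45gip1 -0.31). Mitochondrial translation factors gave 3 lower of 12 tested, with Tsfm, the partner of the elongation factor Tufm, at -0.53 and the recycling factor Mrrf at -0.50. Mitoribosome assembly gave 3 lower of 16, with Mrm3 and Malsu1 at -0.50 and -0.47 and a median of -0.10. RNA processing gave 2 lower of 18 (Ptcd2 -0.52, Trmt10c -0.36), near the share over all genes, with a median of -0.18.

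Regulators went both ways. None of 9 genes of mitochondrial transcription was called by edgeR, with 1 at an unadjusted p under 0.05, and their median was -0.14. Of 8 genes of mitochondrial DNA maintenance, the thymidine kinase Tk2 was higher (0.95 ± 0.16) and the helicase Twnk lower (-0.46 ± 0.16). Among the regulators of mitochondrial biogenesis the coactivator Ppargc1a was higher (200 and 140 CPM against 98.4 and 101, 0.78 ± 0.15) and so was the nuclear receptor Esrrb (1.99 ± 0.30). Its relative Esrrg was lower (839 and 751 against 1157 and 1126, -0.52 ± 0.13), as was Myc (-1.50 ± 0.22). Esrra stood at -0.16 ± 0.14 (adjusted p = 0.507).

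Other markers moved with this comparison. A list of 14 genes known to respond to tissue dissociation, such as Fos and Atf3, had 11 lower and none higher in cluster 1. It summed to 16.4 to 22.2 per 10000 UMIs of all genes in cluster 1, against 39.6 to 58.2 in cluster 8. List sums here have mt- UMIs in their denominator, which hold a larger share in cluster 1. Of 8 heat shock genes 3 were lower, with Hspe1 and Hspd1, mitochondrial chaperonins, at -0.75 and -0.65. The chief cell markers Pgc and Pga5 were lower, and the 3 measured chief markers summed to 37.9 to 46.0 against 97.8 to 143. Enterocyte markers summed to 107 to 108 against 52.6 to 62.2, with Apoa1 and Fabp1 higher. Of 4 nuclear-retained RNAs 1 was higher, Meg3, with 114 and 86.6 CPM against 0.197 and 0.376, and the list summed to 16.5 to 16.6 against 13.5 to 14.3. Stromal markers were at 0 in cluster 8 and at most 0.00155 in cluster 1. Neither these genes' part nor that of cell depth beyond the matched values in the difference between clusters 1 and 8 was tested, and differences between cells of a cluster in kind and in RNA per cell cannot be told apart in summed counts.

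Both parietal clusters together stood above the mean of the other epithelial clusters in both genomes. All 19 tested mt- genes were higher, where 32.8% of all genes were called higher and 32.1% lower, and 74 of 78 tested Mrp genes were higher and 1 lower. The median log2 fold change was 2.22 for mt- genes and 0.78 for Mrp genes, against -0.07 for all genes. Mt-Nd3 (2.79 ± 0.07 SE), mt-Nd2 (2.64 ± 0.07) and mt-Nd5 (2.59 ± 0.07) rose most among the mRNAs, and mt-Nd6 least (1.20 ± 0.07). Among transfer RNAs mt-Tl1 reached 3.89 ± 0.14.

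Mrp genes did not rise evenly in parietal cells. Mrpl34, a large-subunit protein, had 390 and 394 CPM in K and T against 90.5 and 91.9 (2.09 ± 0.04, adjusted p = 9.12e-34). Mrpl20 (417 and 441 against 97.4 and 110, 2.07 ± 0.06), Mrpl55 (176 and 185 against 44.9 and 47.0) and Mrps36 (1.99 ± 0.10) were the next. Mrpl23 alone was lower, at 1.99 and 1.69 CPM against 3.42 and 2.91 (-0.73 ± 0.27, adjusted p = 0.0176), a value that rests on 374 UMIs in the whole dataset. Nuclear respiratory genes rose too: 37 of 37 complex I genes were higher with a median of 2.09, and the medians were 1.82 for complex II (4 of 4), 2.08 for III (9 of 9), 2.35 for IV (11 of 11) and 1.90 for V (15 of 16). Mitoribosome assembly genes (14 of 16 higher) had a median of 0.64 and translation factors (10 of 12) one of 0.85. Esrrg (4.57 ± 0.06), Ppargc1a (4.76 ± 0.10) and Esrra (2.42 ± 0.07) were higher. Prorp, the protein subunit of mitochondrial RNase P, was lower (-1.63 ± 0.10).

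Dataset 1, from other mice, gave parietal cluster 0 against the mean of its other epithelial clusters. All 11 tested mt- genes were higher, where 25.4% of 11965 genes were called higher and 20.2% lower, with a median of 2.04. Of 74 tested Mrp genes 62 were higher and 1 lower, with a median of 0.69. Without pool tube1 or tube2 of cluster 0 and its comparators, 24 and 20 Mrp genes were higher. Mrpl20 (472 and 473 CPM in tube1 and tube2 against 126 and 131, 1.90 ± 0.12 SE), Mrpl9 (1.83 ± 0.13), Mrpl34 (1.82 ± 0.13) and Mrpl55 (1.67 ± 0.15) rose most, and Mrpl52 was lower (-0.36 ± 0.13, adjusted p = 0.0274). The 37 nuclear complex I genes were all higher with a median of 1.88.

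**Figure D4:**
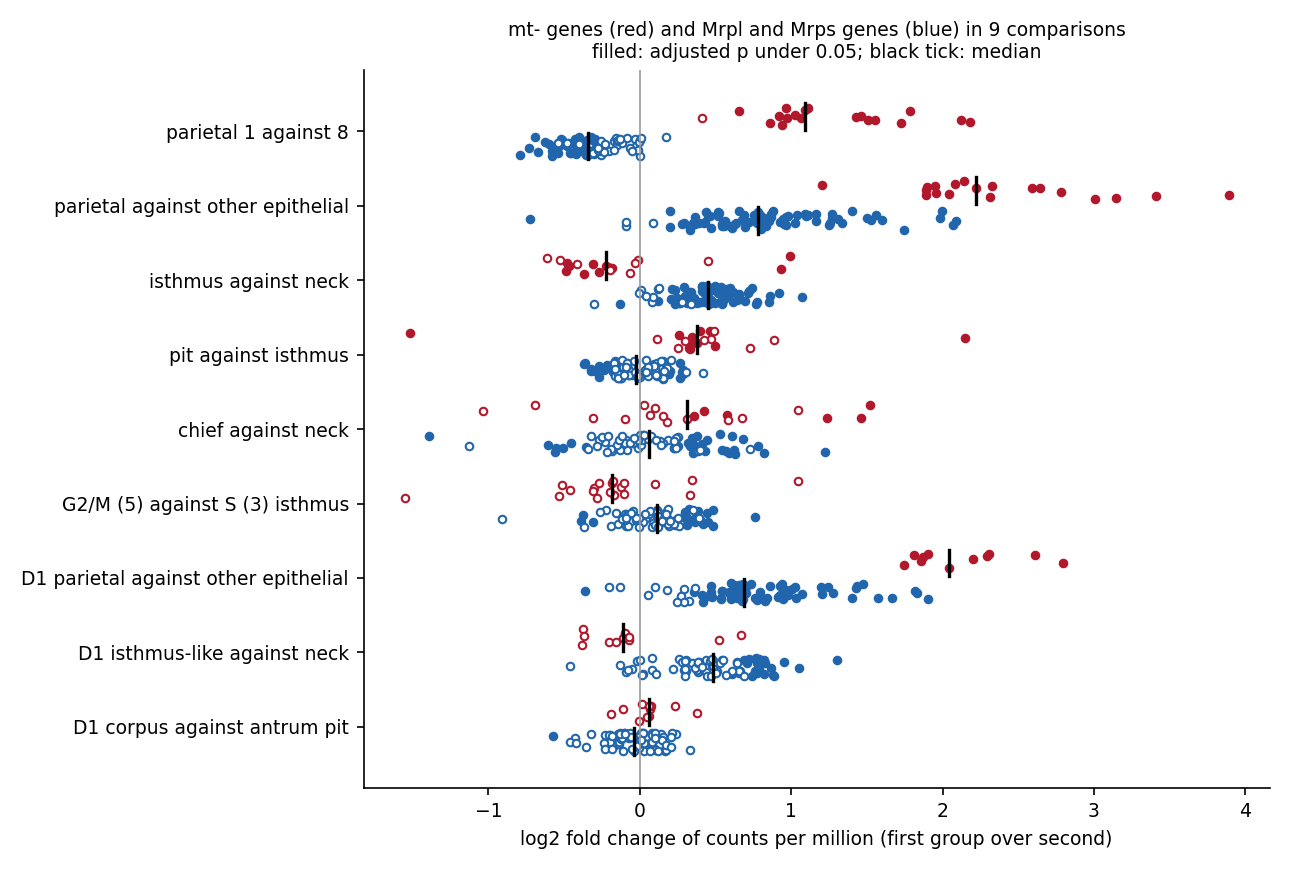
Log2 fold changes of the tested mt- genes (red) and Mrpl and Mrps genes (blue) in 9 comparisons, with filled points at an adjusted p under 0.05 (edgeR) and a black tick at the median. The medians of both colours lie right of 0 in parietal cells against other epithelial cells, at 2.22 and 0.78, and on opposite sides in parietal cluster 1 against 8, at 1.09 and -0.34, with single Mrp genes on the other side of 0 in each.

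Across single genes, 62 of the 76 Mrp genes with at least 1000 UMIs in dataset 2 had their highest epithelial level per 1000000 nuclear UMIs in parietal cluster 8, 7 in isthmus cluster 6, 4 in cluster 5 and 1 in parietal cluster 1. The lowest level was in chief cells for 66. These levels and ratios are shares of nuclear UMIs, and under TMM scaling 22 Mrp genes were higher and 7 lower in chief than in neck cells, so the place of chief cells depends on the scale. The ratio of the highest to the lowest epithelial level ran from 1.89 (Mrps18b) to 25.3 (Mrps36), with a median of 3.51. Mrps36 held 33.9 and 37.6 UMIs per 1000000 nuclear UMIs in cluster 8 and 1.20 and 1.62 in chief cells. Mrpl34 held 433 and 444 against 44.8 and 45.2, and Mrpl9 239 and 242 against 26.2 and 26.8. In dataset 1, 46 of 56 such genes were highest in parietal cluster 0 and 9 in the isthmus-like cluster 4-15. Levels were compared between clusters only, since a UMI count at the 3′ end is not scaled by length.

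Isthmus cells hold the dividing progenitors, and neck cells are the mucous cells below them in the gland. Averaged over clusters, isthmus cells had higher Mrp and lower mt- levels than neck cells. Of 78 tested Mrp genes 67 were higher in the isthmus and 1 lower, where 29.3% of all genes were called higher and 27.9% lower. Among 19 mt- genes 9 were lower and 2 higher, and all 8 tested mt- mRNAs were among the lower. The medians were 0.45 for Mrp genes and -0.22 for mt- genes, against 0.00 for all genes. Mrps22 (60.1 and 59.5 CPM in K and T against 29.0 and 26.6, 1.07 ± 0.06 SE, adjusted p = 5.78e-17), Mrps25 (0.92 ± 0.06), Mrpl49 (0.86 ± 0.06) and Mrpl51 (126 and 128 against 67.3 and 69.6, 0.85 ± 0.05) rose most. Mrpl48 was the lower gene (-0.13 ± 0.05, adjusted p = 0.0412), and it lay on the other side of the threshold with scaling from nuclear genes alone. Mt-Nd4 (-0.49 ± 0.07) and mt-Rnr2 (-0.48 ± 0.09) fell furthest among mt- genes, and the transfer RNAs mt-Tl1 (0.94 ± 0.34) and mt-Tt (1.00 ± 0.32) rose. Without pool T of these clusters 4 mt- genes were lower.

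Averaged over clusters, the 8 mt- mRNAs were lower in the isthmus, while most nuclear genes of complexes I and IV were higher. Of 37 complex I genes 29 were higher and 2 lower, with a median of 0.28. In complex IV 10 of 11 genes were higher. Neck cluster 2 held 77.2 nuclear complex I UMIs per 10000 nuclear UMIs, inside the isthmus range of 72.1 (cluster 6) to 81.4 (cluster 9). Its complex IV level, 69.7, lay inside the isthmus range of 67.6 to 75.9. The other neck clusters lay below, at 54.2 to 66.4 for complex I and 41.6 to 54.9 for complex IV. DESeq2, with another scaling, put the median of all genes at -0.14 and called 3721 genes higher and 5305 lower, against 4488 and 4265 with edgeR. Under it 63 Mrp genes were higher and 1 lower, and 9 mt- genes were lower and 1 higher. The dissociation response moved with this comparison too, with 13 of 14 genes higher in the isthmus. Its summed level varied among neck clusters from 11.3 (cluster 7) to 226 (cluster 0) per 10000 UMIs of all genes. Among isthmus clusters it varied from 30.98 (cluster 9) to 152 (cluster 11). All 8 heat shock genes were higher. The part of these genes in the difference was not tested. Isthmus cluster 11, at 60.8 ± 4.00 Mrp UMIs per 10000, did not differ from neck cluster 2, at 60.9 ± 1.48, beyond its spread. In mt- share, neck cluster 0 (4.95% ± 0.534) did not differ from isthmus cluster 3 (4.76% ± 0.034) beyond its spread.

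In dataset 1 the isthmus-like cluster 4-15 against neck cluster 3 gave 24 of 74 tested Mrp genes higher and none lower, where 10.3% of all genes were called higher and 8.52% lower, with a median of 0.48. At an unadjusted p under 0.05, 41 were higher and none lower, and DESeq2 called 25 higher. Mrpl51 (151 and 129 CPM in tube1 and tube2 against 52.7 and 59.2, 1.30 ± 0.23 SE, adjusted p = 0.000118), Mrps22 (1.05 ± 0.24), Mrps10 (0.95 ± 0.28) and Mrps11 (0.88 ± 0.29) led. None of the 11 tested mt- genes was called by edgeR or by DESeq2, and none had an unadjusted p under 0.05, with a median of -0.11. Leaving out tube1 or tube2 of the compared clusters left 3 and 2 Mrp genes higher. Here 11 of 14 dissociation response genes were lower in the isthmus-like cluster, the opposite of dataset 2. They summed to 25.1 to 42.1 against 82.3 to 85.0 per 10000 UMIs of all genes.

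Within the cycling isthmus cells, G2/M cluster 5 was set against S-phase cluster 3. Of 78 tested Mrp genes 16 were higher in G2/M and 3 lower, where 9.89% of all genes were called higher and 10.2% lower, and the median was 0.12. Mrpl51 rose most (162.8 and 170 CPM in K and T against 97.2 and 99.5, 0.76 ± 0.10 SE, adjusted p = 7.70e-08), followed by Mrpl57 (0.49 ± 0.11), Mrps22 (0.48 ± 0.10) and Mrpl37 (0.45 ± 0.10). Mrps6 (-0.39 ± 0.11), Mrpl49 (-0.38 ± 0.09) and Mrpl18 (-0.31 ± 0.11) fell. Mrpl49 thus stood above neck cells in the isthmus and lower in its G2/M cluster than in its S-phase cluster. No mt- gene was called by edgeR, with 2 lower at an unadjusted p under 0.05 and a median of -0.18, and DESeq2 called 5 lower. Without pool K or pool T of these clusters 3 and 4 Mrp genes were higher. No dissociation response gene was called by edgeR, or at an unadjusted p under 0.05.

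Pit cells, the surface mucous cells, had 10 of 19 mt- genes higher and 1 lower than isthmus cells in the TMM-scaled fit. Among all genes 17.2% were called higher and 21.0% lower. As a share of all mt- and nuclear UMIs, mt- genes took 4.93% in pre-pit cluster 4, above the isthmus clusters (4.00% to 4.76%). Mature pit cluster 13, at 4.51%, lay within the isthmus range. Of the 8 mt- mRNAs 7 were higher, by 0.26 (mt-Nd5) to 0.46 (mt-Nd3), and mt-Rnr1 rose by 0.50 ± 0.10. Mt-Nd6 missed the threshold (0.26 ± 0.10, adjusted p = 0.0514). Mt-Tm rose (2.15 ± 0.52) and mt-Tt fell (-1.52 ± 0.46), both on few UMIs. Mrp genes were split, with 11 higher and 13 lower of 78 and a median of -0.02. With epithelial clusters only in the fit 23 were higher and 9 lower with a median of 0.04, so no direction is given for the list, and the median of all genes went from -0.06 to 0.02. Mrpl43, Mrps21, Mrpl55 and Mrps24 rose by 0.28 to 0.29, while Mrpl49 (-0.37 ± 0.07), Mrps11 (-0.37 ± 0.08), Mrps25 (-0.32 ± 0.07) and Mrpl13 (-0.32 ± 0.07) fell. Without pool T of these clusters 1 mt- gene was higher, with no Mrp gene higher and 5 lower by edgeR, and without pool K these counts were 5, 6 and 5. All 14 dissociation response genes were lower in pit cells, at 12.5 to 19.8 per 10000 UMIs of all genes in both pit clusters. Their part in the difference was not tested.

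Chief cells, the pepsinogen-secreting cells at the gland base, had the lowest summed Mrp level among the epithelial clusters of dataset 2. Single genes went both ways against neck cells. Of 78 tested Mrp genes 22 were higher and 7 lower, where 17.8% of all genes were called higher and 16.4% lower, with a median of 0.06. This fit scales each cluster by TMM, while the summed level is a share of nuclear UMIs. The chief markers summed to 1918 to 1960 per 10000 UMIs of all genes in chief cells and to between 1153 and 2168 in the neck clusters. Mrpl16 rose most (120 and 100 CPM in K and T against 44.1 and 51.2, 1.22 ± 0.11 SE, adjusted p = 3.08e-12), then Mrpl20 (0.82 ± 0.12), Mrps34 (0.78 ± 0.12) and Mrps21 (0.68 ± 0.10). Mrps36 fell most (2.02 and 2.81 against 6.23 and 6.82, -1.39 ± 0.38, adjusted p = 0.00431), then Mrps35 (-0.61 ± 0.13), Mrpl41 (-0.56 ± 0.14) and Mrps9 (-0.55 ± 0.15).

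Among mt- genes 6 were higher in chief than neck cells and none lower in the TMM-scaled fit. As a share of all UMIs, mt- genes took 3.6% ± 0.181 in chief cells, below every neck cluster. The direction for the mt- genes as a list therefore depends on the scale. Mt-Nd6 stood out among the mRNAs at 1.46 ± 0.13 (adjusted p = 7.29e-12), against 0.42 ± 0.12 for mt-Nd2, 0.36 ± 0.12 for mt-Nd5 and -0.10 ± 0.11 (adjusted p = 0.55) for mt-Co1. As a share of mt- UMIs mt-Nd6 took 0.26% ± 0.03 in chief cells, 0.0615% ± 0.0088 in parietal cluster 1 and 0.063% ± 0.0039 in cluster 8. Mt-Rnr2 took 17.2% ± 1.8 in chief cells. Reads of mt-Nd6 and of mt-Nd5 overlap at their 3′ ends on opposite strands, and the use of strand in the counting is not given in the sources used here. Of 14 dissociation response genes 12 were higher in chief cells, at 39.6 to 61.4 per 10000 UMIs of all genes, and their part was not tested. Without pool K or T of the compared clusters 1 and 2 mt- genes were higher, and 13 and 15 Mrp genes.

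**Figure D5:**
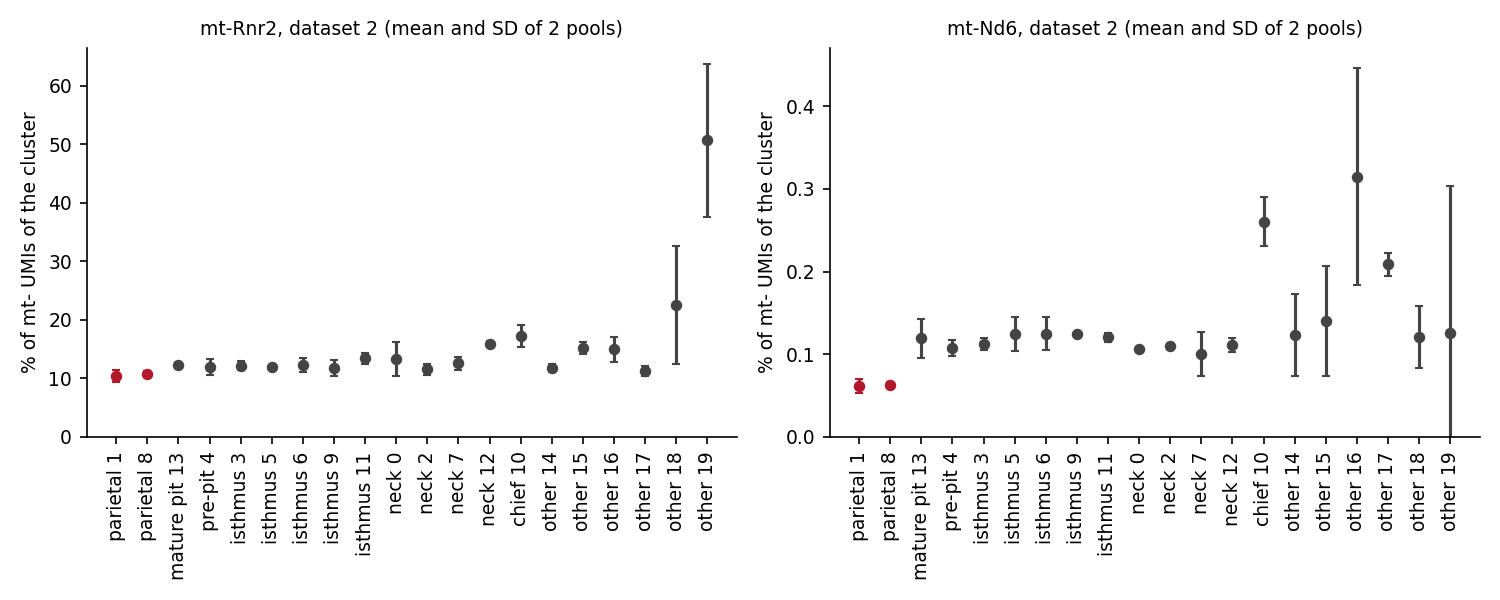
Share of mt-Rnr2 (left) and mt-Nd6 (right) among the mt- UMIs of each cluster of dataset 2, as mean and SD of 2 pools. Chief cells hold 0.26% mt-Nd6 and both parietal clusters (red) about 0.06%, and the small cluster 19 (9 cells) holds 50.7% ± 13.1 mt-Rnr2.

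Stomach region was compared in pit cells only. Corpus pit clusters against antrum pit clusters in dataset 1 gave no called mt- gene of 11 with edgeR or DESeq2 and none at an unadjusted p under 0.05, where 2.11% of all genes were called higher and 3.18% lower. Of 74 tested Mrp genes Mrpl33 was lower in the corpus (84.4 and 84.2 CPM in tube1 and tube2 against 120 and 132, -0.57 ± 0.16 SE, adjusted p = 0.0212), a call lost without either pool. Another 2 Mrp genes were lower at an unadjusted p under 0.05 and none was higher. The medians were 0.06 for mt- genes and -0.04 for Mrp genes.

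The Mrp genes lay on 18 chromosomes, with at most 11 of 80 on chromosome 11. Upstream stretches of genes named above are shown because motifs of factors known to serve nuclear mitochondrial genes fall in them. Each is 80 bases from RefSeq on GRCm38.p6, plus strand, with the motif letters in capitals: Mrpl34 (chr8:71464846-71464925), Mrps27 (chr13:99344701-99344780), Mrpl51 (chr6:125192073-125192152) and Mrpl9 (chr3:94443256-94443335).
Mrpl34: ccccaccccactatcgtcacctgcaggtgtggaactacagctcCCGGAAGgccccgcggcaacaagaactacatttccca
Mrps27: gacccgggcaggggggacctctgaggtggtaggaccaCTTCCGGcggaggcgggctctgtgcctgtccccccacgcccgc
Mrpl51: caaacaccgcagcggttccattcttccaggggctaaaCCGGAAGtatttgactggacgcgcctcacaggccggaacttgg
Mrpl9: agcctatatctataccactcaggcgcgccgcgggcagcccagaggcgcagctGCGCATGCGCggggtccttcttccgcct
Mrpl34 and Mrpl51 hold the ETS letters CCGGAAG, and Mrps27 holds them on the other strand, printed as CTTCCGG. Mrpl9 holds the NRF1 core GCGCATGC on both strands in overlap. Promoters of 69 of the 80 Mrp genes were in the RefSeq table, each from 250 bases before to 50 after the start. CCGGAAG on either strand was in 25 (36.2%, against 9.12% of 27025 promoters of all genes), GCGCATGC in 8 (11.6% against 2.80%) and the YY1 letters AAGATGGC in 12 (17.4% against 2.88%). The estrogen-related receptor letters TCAAGGTCA were in none (against 0.407%), which says only that these letters are not in these windows. These are counts of letters, not of bound sites, and the promoters of all genes were not matched to the Mrp promoters in base composition.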

How the data were processed

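Quartz-Seq2 libraries of sorted cells of the mouse stomach were analysed from 18 plates. Per the labels and methods, the authors converted reads with bcl2fastq 2.20.0.422, aligned them to GRCm39 and deposited UMI counts per gene and well together with tables of kept cells (at least 2500 detected genes) and their clusters. The deposited counts were not normalized. The percent of mitochondrial UMIs per cell, computed by the authors, was used only to check the counts. The handling of reads with several matches is not given in the sources used here. Cells of dataset 2 were assigned to pools by the sample names in the authors' cell annotation, since the plate names give no sample. The members and lists were chosen with earlier results of these data known.

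Counts of kept cells were summed by cluster and pool and tested with edgeR 4.0.16 (R 4.3.3; filterByExpr, TMM, quasi-likelihood test, Benjamini-Hochberg, adjusted p under 0.05), with all clusters of a dataset in 1 fit. Log2 fold changes have SE = |log2 fold change| / square root of F. Levels printed as CPM are TMM-scaled means over the clusters of a side. Shares were taken from summed counts. Values of single cells also carry counting error. The fit was checked on simulated counts of the comparison of parietal clusters 1 and 8 (13502 genes): 7 of 67 genes changed by a log2 of 0.5 were recovered, 46 of 67 changed by 1 and 63 of 66 changed by 2, with 3 false calls. The simulated counts had the same mean profile in all clusters and a larger spread than the common dispersion of 0.0075 fitted in dataset 2. These recoveries therefore do not give the power of the fit on the real counts. Doublets were not called. Pools come from separate mice, and samples of a pool number share mice: deviations of the pools correlated between clusters with a median of 0.20 in dataset 2 (77 of 91 pairs over 0.1) and 0.05 in dataset 1 (5 of 21).

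Named genes were all mt- mRNAs and rRNAs, the 4 largest called rises and falls of Mrp genes in each comparison (those with 10 or more UMIs per pool on the higher side and 1 direction in both pools) and the 4 most abundant Mrp genes, and of other lists the 2 largest rises and falls in the parietal comparisons, with Esrra and Esrrg. Transfer RNAs, Mrpl14, Mrps18b named beyond this were chosen after their values were seen. Alternatives were DESeq2 1.42.0, no count filter, nuclear scaling, epithelial clusters only, plates as units, a pool block and leaving out a pool. Wells under 100 UMIs were left out of the discarded wells. Nuclear copies were found with blastn on GRCm39, and gene positions are from GENCODE.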

Additional observations from a re-analysis of the deposited data

Results flagged for a closer look

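Wells that the authors did not keep (under 2500 detected genes, at least 100 UMIs) held most of their UMIs on mt- genes. The share of summed UMIs was 79.4% in tube1 (886 wells), 71.7% in tube2 (818 wells), 68.5% in pool K (333 wells) and 66.7% in pool T (242 wells). In the wells with at least 2500 genes it was 6.65%, 8.68%, 8.95% and 7.36%. These wells stand out because no comparison above used them. In dataset 2 the median well that was not kept had 14.8% (K) and 12.8% (T), so a part of the wells carried the excess: 145 of 333 in K and 96 of 242 in T were above 20%. Those wells held parietal markers at 324 and 309 per 10000 nuclear UMIs, against 53.1 and 41.4 in wells at or below 20% and 131 and 91.5 in kept wells. In dataset 1 the same wells held 59.3 (tube1) and 30.6 (tube2), against 9.94 and 11.1 at or below 20% and 48.3 and 88.6 in kept wells. The Mrp level in wells above 20% was 68.9 (K), 56.8 (T), 42.0 (tube1) and 37.0 (tube2) per 10000 nuclear UMIs.

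Dixon's test over the plates of each pool and parietal cluster (8 groups) marked no plate.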

How the results depend on the processing

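Of the recomputed values 190 stayed within 1.5 times the reported count or 1 SD of the reported share, and 48 did not. Scaling from nuclear genes alone and the pool as a replicate block moved none of the 27 counts beyond 1.5 times: with the block, parietal cluster 1 against 8 gave 18 mt- genes higher and 51 Mrp genes lower. Cells with at least 10000 UMIs, and those with 40000 to 60000 (added after the data were seen), moved no parietal share.

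DESeq2 gave 20 Mrp genes lower in pit against isthmus cells and 5 mt- genes and 7 Mrp genes lower in G2/M against S. With no count filter there were 8 Mrp genes lower in pit cells, 9 higher in G2/M and 15 higher in the isthmus-like cluster of dataset 1. With plates as units there were 12 mt- genes higher in parietal cells, which is all 12 that passed the filter there, 22 Mrp genes lower in pit cells, 2 mt- genes lower in G2/M and 4657 genes called in G2/M against S. For parietal cluster 1 against 8, plates as units gave 59 Mrp genes lower and 1 higher. With epithelial clusters only, 23 Mrp genes were higher and 9 lower in pit against isthmus cells, against 11 and 13, which turns the balance and the sign of the median (-0.02 to 0.04), and all genes went from 2631 higher and 3212 lower to 3401 and 2906, and 2 mt- genes were lower in G2/M and 2 in the isthmus-like cluster. The mean over cells put parietal cluster 1 at 24.5% mt- UMIs. Against nuclear UMIs the Mrp share was 0.894% in cluster 1 and 1.16% in cluster 8, against 0.695% and 1.01% of all UMIs.

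Leaving out 1 pool of the compared clusters made the fit assume that the lone sum varies like the others. It gave 10 to 15 mt- genes higher, 7 to 15 Mrp genes lower and 675 to 1828 genes called for parietal cluster 1 against 8, 6387 to 6545 genes called for parietal against other epithelial cells, and 4 to 6 mt- genes lower in the isthmus. For pit cells it gave 1 to 5 mt- genes higher, 5 to 5 Mrp genes lower and 3161 to 4318 genes called. For chief cells it gave 1 to 2 mt- genes and 13 to 15 Mrp genes higher and 3253 to 3303 genes called. For G2/M it gave 3 to 4 Mrp genes higher and 1314 to 1321 genes called. In dataset 1 it gave 20 to 24 Mrp genes higher and 2453 to 2772 called in parietal cells, 2 to 3 Mrp genes higher and 721 to 762 called in the isthmus-like cluster, and 0 to 0 Mrp genes lower and 137 to 187 called between regions. For G2/M against S DESeq2 called 1234 genes higher and 2348 lower, against 1512 and 1562. In the simulation of parietal cluster 1 against 8, with a larger spread than the real counts, 7 of 67 genes changed by a log2 of 0.5 were recovered. No smaller change was simulated.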
